A study of Homo sapiens with 6 samples.

Results

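The regions described here were CENP-A peaks in centromeric windows, 1 window on each of the 22 autosomes. They came from CUT&RUN, a method that tethers a nuclease to an antibody on the chromatin of permeable cells, so that the DNA around the bound protein is cut free and sequenced. For each autosome, the window was the 5-Mb stretch with the greatest length under peaks of siNeg CENP-A replicate 1, taking the middle of tied starts. All peaks of the 4 CENP-A lists with at least 1 bp in a window were members, 2546 of the 22235 autosomal CENP-A peaks and of the 33656 peaks in all 6 lists. The windows were chosen from the values of siNeg CENP-A replicate 1, so its values in them are a description, and siNeg CENP-A replicate 3 is the control list that the choice did not use.

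The cells were hTERT-RPE1-Tet-GFP-CENP-A, a telomerase-immortalized retinal pigment epithelial line in which doxycycline (DOX) switches on GFP-tagged CENP-A. They were transfected with siNeg, a control siRNA, or with siDNAJC9, an siRNA against DNAJC9, a J-domain cochaperone that handles histones H3 and H4. From 48 h after transfection, all groups, controls included, received DOX at 1 µg/ml for 48 h, so no group had only its endogenous amount of CENP-A. Each siRNA had 2 CENP-A libraries, numbered replicates 1 and 3, and 1 IgG library, numbered replicate 2. The lists gave each peak as whole kb positions on T2T-CHM13v2.0, with no height, read count or p-value, and the narrowest peak spanned 5 kb. A kb was therefore either called or not called, and a kb that was not called may still have carried CENP-A below the caller's threshold. The antibody was directed against CENP-A, and the lists do not separate the tagged from the endogenous protein.

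CENP-A is the histone H3 variant that replaces H3 in the nucleosomes of active centromeres, and the kinetochore is built on it. In human cells these nucleosomes sit on part of the long arrays of alpha satellite repeats at each centromere, and they are known to be replenished after mitosis by the dedicated chaperone HJURP. In repeat arrays, copies of the same unit lie side by side, so a short read may match several places, and the arrays of RPE1 need not have the same lengths as those of the CHM13 reference. No sequence or satellite annotation of this build was used here, so the windows are called centromeric from the density of siNeg CENP-A peaks alone.

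That density was high in the list that had not chosen the windows. The 22 windows took up 110 Mb, or 3.80% of the autosomal length, and held 91.8% of the autosomal peak length of siNeg replicate 3. On 17 of 22 chromosomes no other 5-Mb window held more kb of siNeg replicate 3. The share of its peak length that lay in the window was lowest on chromosome 4, at 60.0%, and chromosome 13, at 64.4%, so these windows held only part of the siNeg signal. The IgG lists ran the other way. They had 0.242 and 0.293 times as many kb per Mb inside the windows as in the chromosome arms for siNeg and siDNAJC9. By their names, these lists were themselves called against another IgG library of the same siRNA. Few IgG peaks therefore do not measure the background in the windows. IgG peaks in the windows covered 227 kb with siNeg and 477 kb with siDNAJC9, none was longer than 9 kb, and 5, 3, 6 and 7 CENP-A peaks touched an IgG peak of their own siRNA in siNeg replicates 1 and 3 and siDNAJC9 replicates 1 and 3.

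The first question was how much of the windows stayed under CENP-A peaks when DNAJC9 was depleted. With siNeg, peaks of replicates 1 and 3 covered 12048 and 9466 kb of the windows, and with siDNAJC9 they covered 6173 and 5264 kb. Both siDNAJC9 values lay below both siNeg values. The means were 10.757 ± 1.83 Mb with siNeg and 5.7185 ± 0.643 Mb with siDNAJC9 (SD, n = 2), so the covered length was 53.2% of that in the control, a log2 ratio of -0.91. Because siNeg replicate 1 placed the windows, no p-value was attached to this ratio. Its inclusion in the control mean also lowers the ratio: against siNeg replicate 3 alone the log2 ratio was -0.73. With windows placed by the summed length of all 4 CENP-A lists, which treats both siRNAs alike, the lengths were 11.334, 8.942, 8.215 and 6.822 Mb in the same order of lists and the log2 ratio was -0.43. The exact two-sided permutation test over libraries then gave p = 0.333, the smallest value that 2 against 2 libraries allow. On 11 chromosomes this choice moved the window by more than 1 Mb, so that it held other sequence in part or in whole. The paper measured CENP-A by staining on chromosome spreads of these DOX-treated cells. There it reported higher CENP-A at centromeres and also away from them after DNAJC9 depletion. Length under called peaks and staining intensity are unlike measures, so the shorter called length is not an amount of CENP-A.

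**Figure D1:**
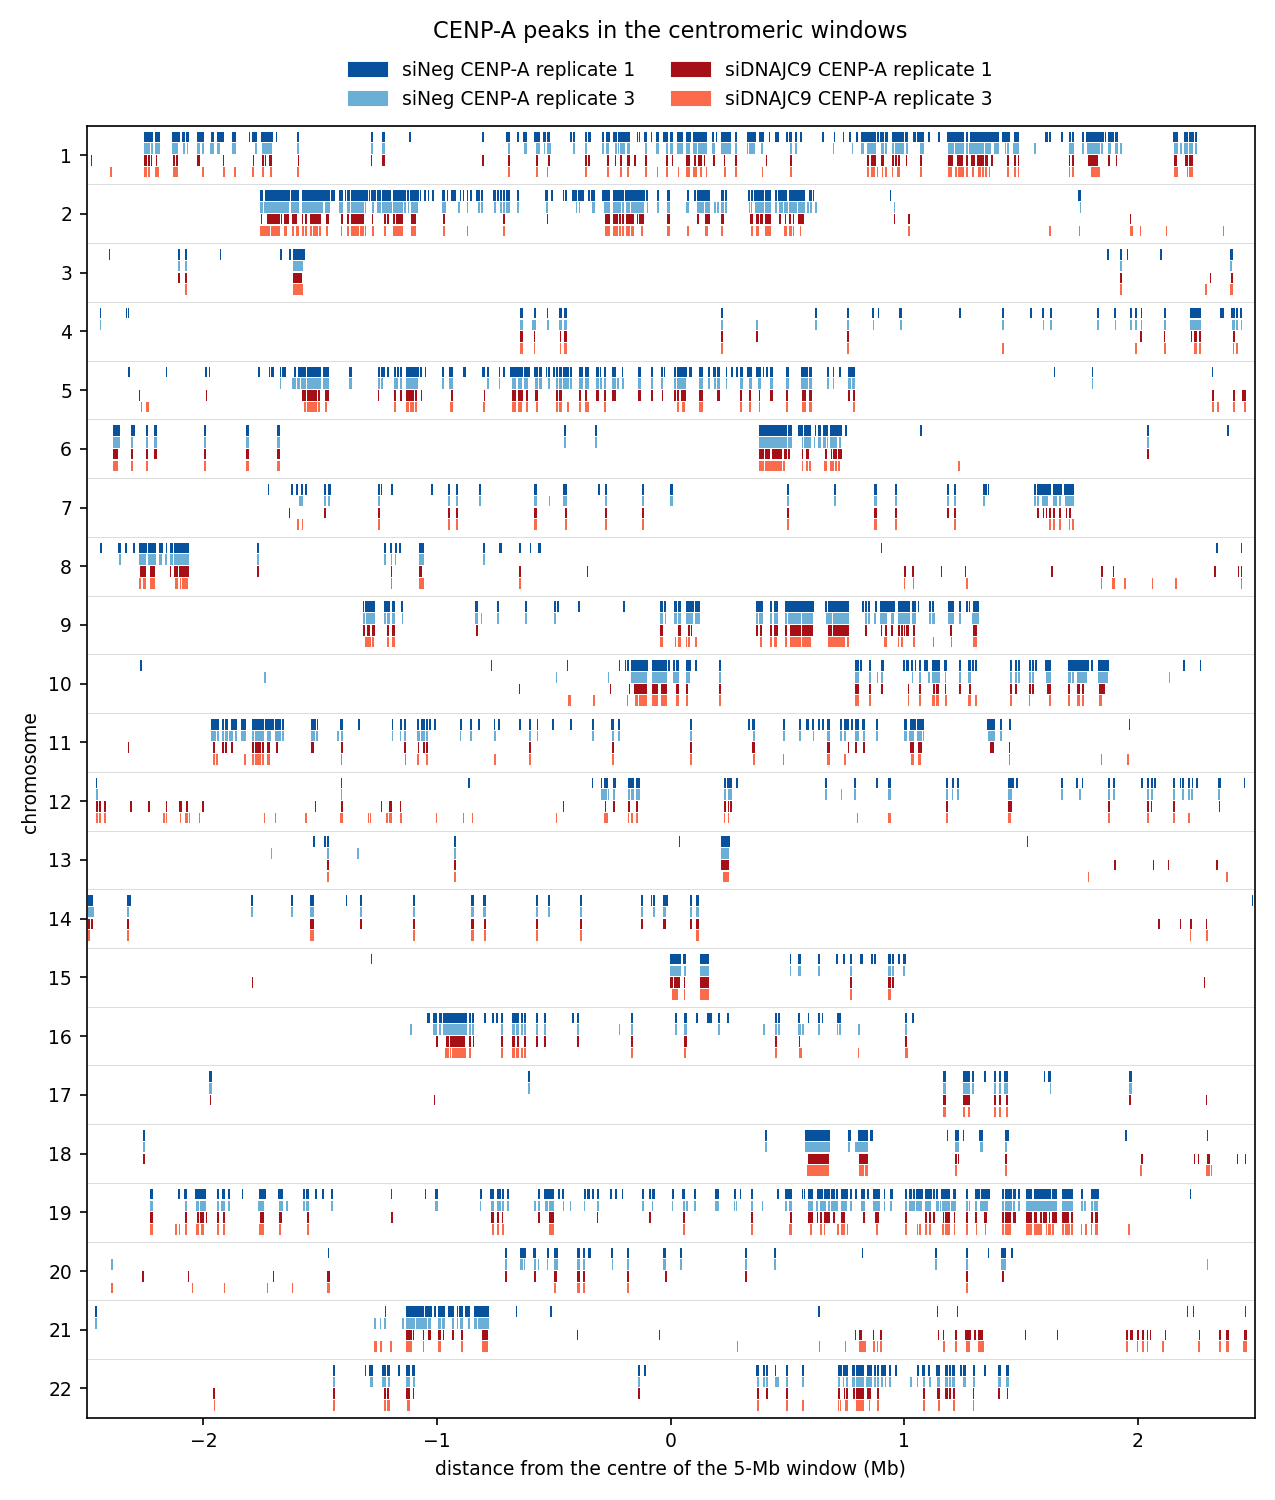
CENP-A peaks in the 22 windows, drawn by distance from the window centre in Mb, with 1 row per autosome and 1 line per CENP-A library. Clusters of siNeg peaks recur at the same places with siDNAJC9 but with fewer and narrower bars, 6173 and 5264 kb in all against 12048 and 9466 kb. On chromosomes 12 and 21 siDNAJC9 peaks also appear away from the siNeg clusters.

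The lower values in the windows stood beside higher values outside them. In the windows, siNeg replicates 1 and 3 had 109.5 and 86.1 kb under peaks per Mb, and siDNAJC9 replicates 1 and 3 had 56.1 and 47.9 kb per Mb. In the 5 Mb on either side, the values were 1.26 and 0.909 kb per Mb with siNeg and 18.7 and 14.9 kb per Mb with siDNAJC9. In the rest of the autosomes they were 0.861 and 0.25 kb per Mb with siNeg and 29.7 and 21.8 kb per Mb with siDNAJC9. The windows were thus 127 and 344 times as densely covered as the arms in the control, and 1.89 and 2.19 times as densely after DNAJC9 depletion. The share of autosomal peak length that lay in the windows was 82.9% and 91.8% with siNeg and 7.13% and 8.16% with siDNAJC9, and the 2 groups did not overlap. The flanks held fewer kb per Mb than the arms in both siDNAJC9 lists and in both IgG lists, and more in both siNeg CENP-A lists. Whether the threshold of the caller, which the spike-in scaling and the control library set for each list, had a part in the lower window values was not tested.

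Both siDNAJC9 lists lay below both siNeg lists in 20 of 22 windows. Because siNeg replicate 3 was the lower siNeg list in all 22 windows, the count against it alone is this same count. Over the windows and 556 further 5-Mb bins of the autosomes together, 3.46% were lower in this sense and 91.7% were higher. All 20 lower ones were windows, and all 530 higher ones were bins outside them. Since the windows were placed at the maximum of a siNeg list, this contrast is a description. With the windows placed by all 4 lists, both siDNAJC9 lists were lower in 13 of 22. The replicates of a group also differed in a fixed order. Replicate 1 covered more kb than replicate 3 in 22 of 22 windows with siNeg and in 19 of 22 with siDNAJC9. On chromosome 3 the lower siNeg value, 78 kb, exceeded the higher siDNAJC9 value, 77 kb, by only 1 kb.

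**Figure D2:**
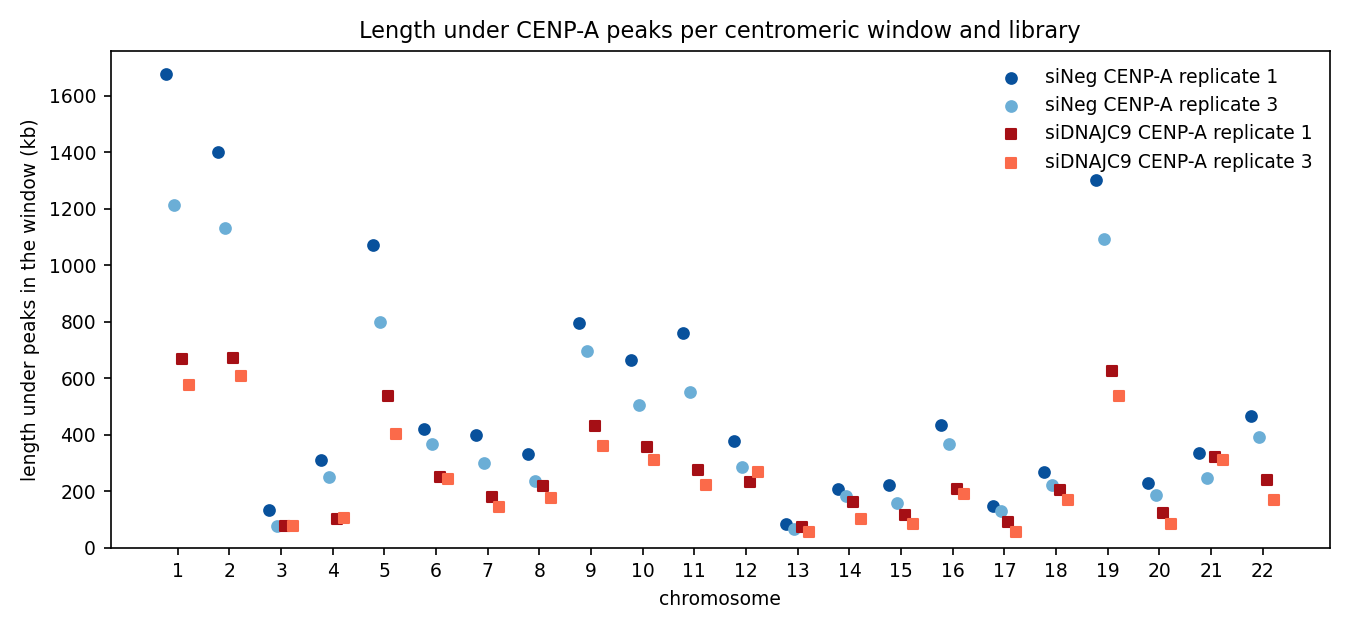
Length under CENP-A peaks in kb (vertical axis) in each of the 22 windows (horizontal axis), with 1 point per library. The siDNAJC9 squares lie below both siNeg circles in 20 of 22 windows, the exceptions being chromosomes 13 and 21.

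The ratio differed between chromosomes. The mean siDNAJC9 length was 53.2% of the mean siNeg length in the median window, and the range ran from 37.1% to 108.6%. Chromosome 4 was lowest, with 311 and 252 kb in siNeg replicates 1 and 3 against 103 and 106 kb in siDNAJC9 replicates 1 and 3 (chr4:50255001-55255000). Its siNeg peaks fell in separate small clusters, and the longest peak there was 27 kb with siNeg and 10 kb with siDNAJC9. Chromosome 11 followed at 37.9%, with 759 and 553 kb against 274 and 223 kb in the same order (chr11:50531001-55531000). Chromosome 1 had the greatest length of any siNeg list, 1679 and 1213 kb, and 667 and 576 kb with siDNAJC9, which was 43.0% (chr1:121548001-126548000). Chromosome 7 stood at 46.8%, with 399 and 300 kb against 181 and 146 kb (chr7:59489001-64489000). In these 4 windows each siDNAJC9 value was well under the lower siNeg value.

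At the other end, chromosome 21 had 336 and 248 kb in siNeg replicates 1 and 3 against 323 and 311 kb in siDNAJC9 replicates 1 and 3, a ratio of 108.6% (chr21:9589001-14589000). Chromosome 13 had the smallest domain of the set, 83 and 67 kb against 75 and 55 kb, a ratio of 86.7% with groups that overlapped (chr13:14756001-19756000). Chromosome 18 had 267 and 222 kb against 205 and 169 kb, or 76.5% (chr18:16497001-21497000). Chromosome 12 had 377 and 285 kb against 232 and 267 kb, or 75.4% (chr12:32367001-37367000). The groups did not overlap on chromosomes 12 and 18. The 14 windows not named here ranged from 47.7% to 71.8%.

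On chromosome 21 the window total joined 2 unlike regions. Within the core domain of siNeg replicate 3, chr21:10817001-11310000, the kb under peaks were 281 and 239 in siNeg replicates 1 and 3 and 104 and 106 in siDNAJC9 replicates 1 and 3. In the remainder of the window they were 55 and 9 kb with siNeg and 219 and 205 kb with siDNAJC9. The boundary was drawn where siNeg replicate 3 had most of its peak length, in a window placed by siNeg replicate 1, which favors siNeg inside it and siDNAJC9 outside it, so these values are a description and leave the window ratio as it stands. Chromosome 12 was similar in part: its siNeg replicate 3 core held 69 and 77 kb with siNeg and 32 and 37 kb with siDNAJC9. Restricted in this way to the core domain of siNeg replicate 3, both siDNAJC9 lists were below both siNeg lists on 21 of 22 chromosomes, a count that the same choice favors and that supports nothing. The exception was chromosome 3, where a single 45-kb peak of siNeg replicate 3 (chr3:92524001-92569000) was called over the same 45 kb in siDNAJC9 replicate 3 and over 38 kb in siDNAJC9 replicate 1.

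Peaks were both fewer and, on average, narrower with siDNAJC9. The windows had 824 and 671 peaks in siNeg replicates 1 and 3 and 558 and 493 in siDNAJC9 replicates 1 and 3, a log2 ratio of -0.51. This direction depended on the window, since windows of 10 Mb gave a log2 ratio of 0.10 and windows placed by all 4 lists gave 0.11. The mean width was 14.6 and 14.1 kb with siNeg and 11.1 and 10.7 kb with siDNAJC9, while the median width was 9 kb in every list. The lists differed most in their long peaks. Peaks of 20 kb and over numbered 137 and 107 with siNeg and 53 and 36 with siDNAJC9, and they held 45.7% and 41.9% of the covered kb in the control against 27.5% and 22.9% after depletion. Peaks of 50 kb and over numbered 32 and 18 against 7 and 4, and peaks of 100 kb and over numbered 7 and 5 against 0 and 0. The narrowest peaks, of 5 kb, made up 9.22% and 6.71% of siNeg peaks and 13.6% and 14.6% of siDNAJC9 peaks. Outside the windows the order was the reverse, with a mean width of 5.63 and 6.06 kb with siNeg and 7.51 and 7.05 kb with siDNAJC9.

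The longest peaks were blocks of many kb. In siNeg replicate 1 they were chr1:125327001-125455000 with 128 kb, chr9:46758001-46881000 with 123 kb and chr2:92491001-92612000 with 121 kb. In siNeg replicate 3 they were chr19:29438001-29572000 with 134 kb, chr6:61054001-61174000 with 120 kb and chr2:92332001-92439000 with 107 kb. The 134-kb block on chromosome 19 was covered over 127 kb in siNeg replicate 1 and over 92 and 88 kb in siDNAJC9 replicates 1 and 3. The 128-kb block on chromosome 1 was covered over 110 kb in siNeg replicate 3 and over 66 and 45 kb in the siDNAJC9 lists. The 123-kb block on chromosome 9 was covered over 114 kb in siNeg replicate 3 and over 105 and 91 kb in the siDNAJC9 lists. No IgG peak overlapped any of these blocks, though the IgG lists were themselves called against an IgG control.

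With siDNAJC9 the longest peak lay on chromosome 18 in both replicates, chr18:19583001-19676000 in replicate 1 and chr18:19582001-19675000 in replicate 3, each 93 kb. Both siNeg lists had a single peak over the same block, chr18:19573001-19679000, 106 kb long. The block was thus shorter at each end and was called without a gap in between. The next longest siDNAJC9 peaks were chr9:46963001-47032000 with 69 kb and chr16:35842001-35906000 with 64 kb in replicate 1, and chr6:61079001-61153000 and chr9:46943001-47017000 with 74 kb each in replicate 3. All of these lay wholly under siNeg replicate 1 peaks, and siNeg replicate 3 lacked only 2 kb of the one on chromosome 9 in siDNAJC9 replicate 3.

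**Figure D3:**
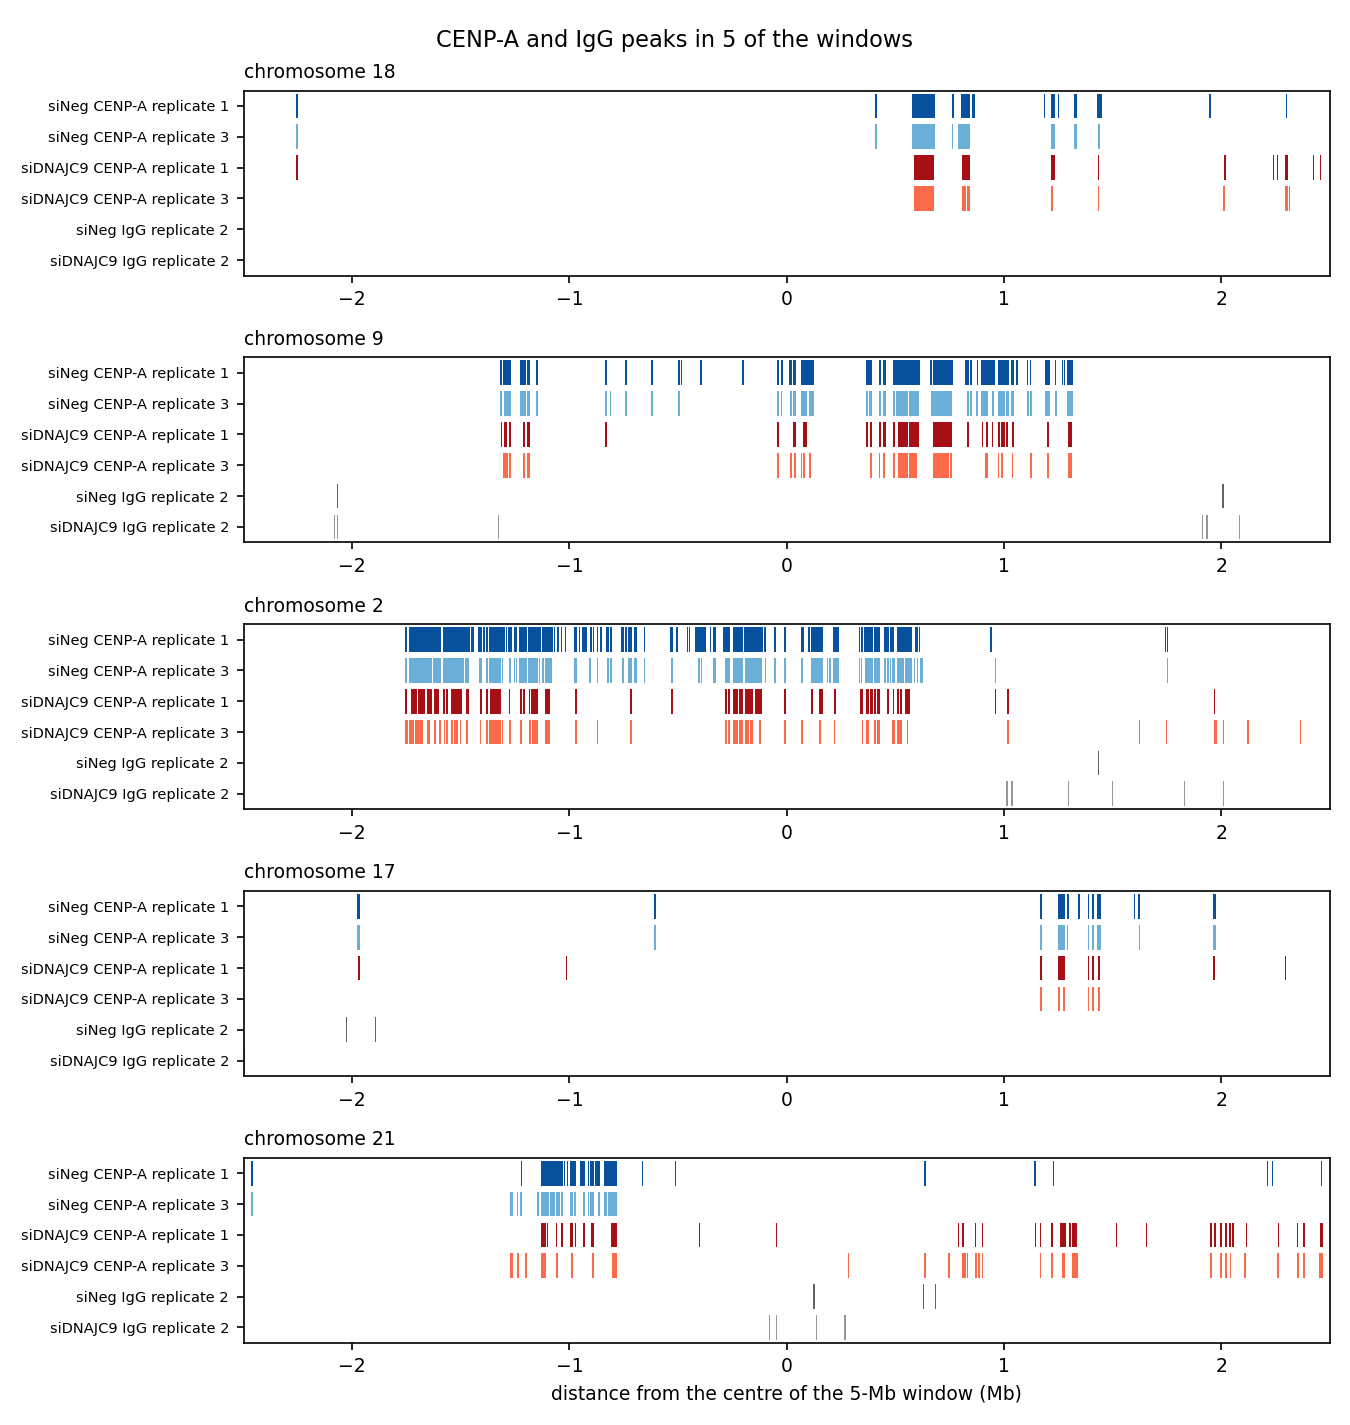
CENP-A and IgG peaks in 5 of the windows by distance from the window centre in Mb, with 1 line per library. The 106-kb block on chromosome 18 spans 93 kb with siDNAJC9, the siDNAJC9 bars on chromosomes 9, 2 and 17 are sparser than the siNeg bars, and chromosome 21 has fewer siDNAJC9 bars in its siNeg domain and more to the right of it.

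Peaks separated by gaps of up to 100 kb were joined to trace the core domain of each chromosome, defined as the joined stretch with the most peak length. Summed over the 22 windows, the core domains spanned 13800 and 11117 kb in siNeg replicates 1 and 3 against 7355 and 5195 kb in siDNAJC9 replicates 1 and 3. The means were 12458.5 ± 1897 kb and 6275 ± 1527 kb (SD, n = 2), a log2 ratio of -0.99. Since siNeg replicate 1 placed the windows, this ratio is a description, and against siNeg replicate 3 alone it was -0.83. With windows placed by all 4 lists, the sums were 12933 and 10782 kb against 9567 and 6316 kb, a log2 ratio of -0.58. Median core lengths were 441.5 and 307 kb with siNeg and 213.5 and 152 kb with siDNAJC9. Cores ranged from 37 to 2300 kb in siNeg replicate 1 and from 26 to 826 kb in siDNAJC9 replicate 3. The shortest of these lay on chromosome 13, and the longest on chromosomes 1 and 19. Peaks filled 49.6% and 44.6% of the core lengths with siNeg and 36.5% and 41.5% with siDNAJC9, so the siDNAJC9 cores were both shorter and less densely filled.

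The core domains lay at the same places on most chromosomes. They overlapped in all 4 lists on 17 of 22 chromosomes, and both siDNAJC9 cores were shorter than both siNeg cores on 16 of 22. For comparison, the cores of the siNeg replicates overlapped each other on 18 of 22 chromosomes and those of the siDNAJC9 replicates on 19 of 22. Both siDNAJC9 cores lay inside that of siNeg replicate 1 on 17 of 22 chromosomes. On chromosome 1 the longest joined stretch of siDNAJC9 replicate 3 was a different part of the window, chr1:125235001-125540000, from that of siDNAJC9 replicate 1, chr1:123679001-124331000. Both lay within the 2300-kb core of siNeg replicate 1.

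Several core domains were shorter on one side only. On chromosome 22 the core began at position 14979001 in all 4 lists, and ended at 15712000 and 15566000 in siNeg replicates 1 and 3 and at 15158000 in both siDNAJC9 lists. On chromosome 17 the core began at 26349001 in all 4 lists, and ended at 26628000 in both siNeg and 26465000 in both siDNAJC9 lists. On chromosome 2 the left edges lay within 3 kb of each other, whereas the right edge was 93420000 in both siNeg lists and 92981000 and 92980000 in siDNAJC9 replicates 1 and 3. On chromosome 19 it was the right edge that was shared, at 29748000 in 3 lists and 29751000 in siNeg replicate 1, and both siDNAJC9 cores began at 28922001, against 28374001 and 27796001 with siNeg. An edge set by a gap of more than 100 kb can move far when a single small peak is not called, which limits the reading of each edge.

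Within the cores, gaps between neighboring peaks had a median of 12 and 14 kb in siNeg replicates 1 and 3, against 18 and 15.5 kb in siDNAJC9 replicates 1 and 3. The largest inner gaps were at the joining limit by construction. They were 100 kb at chr12:37221001-37321000 in siNeg replicate 1 and 100 kb at chr2:92991001-93091000 in siNeg replicate 3. The next, of 96 kb each, were chr14:12573001-12669000 in siNeg replicate 1 and chr1:123534001-123630000 in siNeg replicate 3. The chromosome 12 gap held no peak in any list, and that on chromosome 2 held 32 kb of siNeg replicate 1 peaks and none of siDNAJC9.

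The next question was which kb of the siNeg domains were still called with siDNAJC9. A total of 8849 kb in the windows was under peaks of both siNeg lists. Of these, 59.8% were called in siDNAJC9 replicate 1 and 49.9% in siDNAJC9 replicate 3, a mean of 54.9%. Both siDNAJC9 lists held 3900 kb (44.1%), one of them held 1913 kb (21.6%) and neither held 3036 kb (34.3%). For siNeg replicate 3 alone, 93.5% of its kb were also in siNeg replicate 1, against 56.2% and 47.2% in siDNAJC9 replicates 1 and 3. Replicates of one siRNA shared 73.4% of the kb of siNeg replicate 1, 68.9% of siDNAJC9 replicate 1 and 80.9% of siDNAJC9 replicate 3 with the other replicate. Kb that only one siNeg list held were rarely called with siDNAJC9, on average 5.53% of the 3199 kb of siNeg replicate 1 alone and 6.32% of the 617 kb of siNeg replicate 3 alone. Outside the windows both siNeg lists shared just 172 kb, of which 29.1% were called on average with siDNAJC9.

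**Figure D4:**
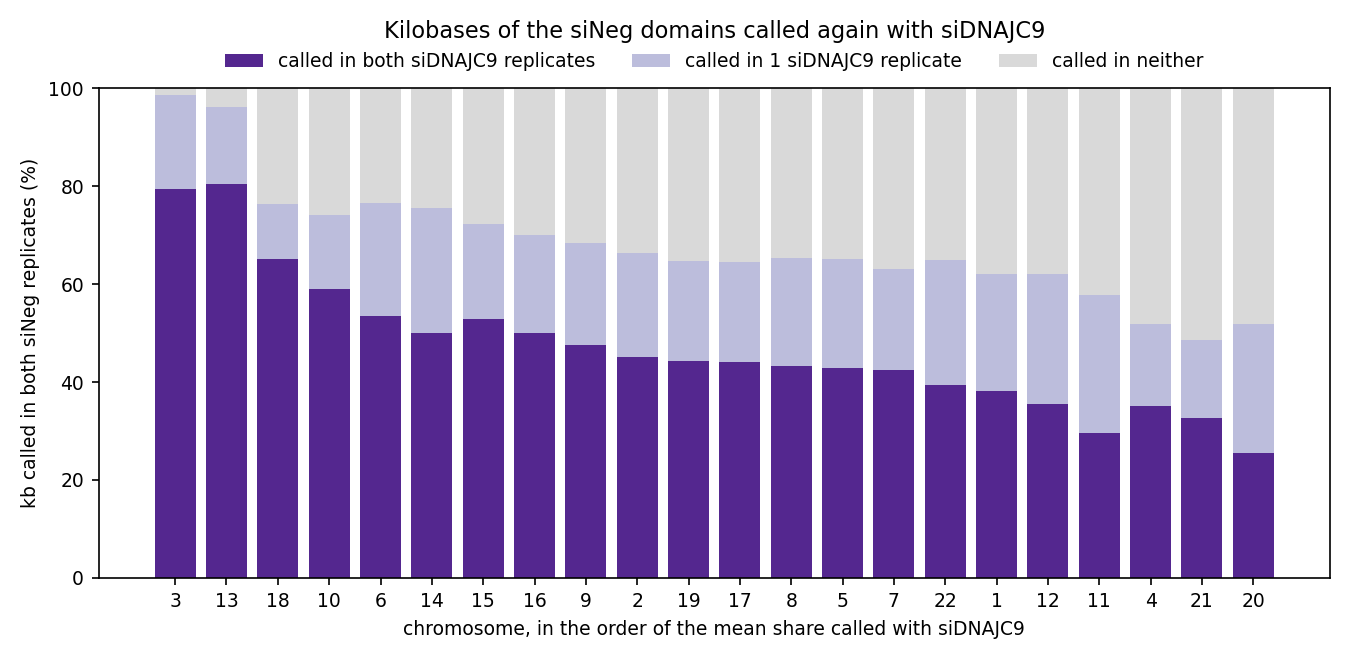
For each window, the share in % of the kb called in both siNeg replicates that was called in both siDNAJC9 replicates, in 1 of them or in neither, stacked to 100%. Chromosomes 3 and 13 stand highest, with means of 89.1% and 88.2%, and chromosomes 21 and 20 lowest, with 40.7% and 38.7%.

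By chromosome, the mean share called with siDNAJC9 was highest on chromosomes 3 (89.1% of 78 kb), 13 (88.2% of 51 kb) and 18 (70.8% of 212 kb). It was lowest on chromosomes 20 (38.7% of 168 kb), 21 (40.7% of 220 kb) and 4 (43.4% of 228 kb). The other 16 windows ranged from 43.7% to 66.6%. The values on chromosomes 3 and 13 rested on few kb, mostly a single block per chromosome. On chromosome 20 the siNeg peaks were short, at most 25 and 19 kb in replicates 1 and 3, and 81 kb were called in neither siDNAJC9 list.

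Whether a siNeg kb was called again with siDNAJC9 went with the width of the peak that held it. For the 359 siNeg replicate 3 peaks of 5 to 9 kb, 37.9% and 28.8% of the kb were in siDNAJC9 replicates 1 and 3. The shares were 57.8% and 46.2% for the 205 peaks of 10 to 19 kb, and 61.7% and 54.6% for the 89 peaks of 20 to 49 kb. They were 80.7% and 73.3% for the 18 peaks of 50 kb and over, and each of those 18 peaks overlapped a peak in both siDNAJC9 lists. The same classes were 87.3%, 93.8%, 97.4% and 98.3% covered by siNeg replicate 1, which had more called kb. In the other direction, 52.9%, 76.1%, 81.0% and 90.3% of the kb of siNeg replicate 1 peaks in these classes were in siNeg replicate 3, against 23.7%, 47.0%, 51.3% and 68.2% in siDNAJC9 replicate 1 and 17.7%, 37.3%, 44.1% and 60.1% in siDNAJC9 replicate 3. A higher share in wider peaks was thus seen between control replicates too, and is not particular to siDNAJC9. In each class the siDNAJC9 shares were below that of the other control replicate. Among the 634 stretches called in both siNeg lists, 203 had no kb in either siDNAJC9 list. By width, these were 8 of 8 stretches of 1 to 4 kb, 168 of 338 stretches of 5 to 9 kb, 24 of 188 of 10 to 19 kb, 3 of 83 of 20 to 49 kb and 0 of 17 of 50 kb and over; the 3 longest were chr1:124384001-124408000, chr21:10999001-11023000 and chr1:125432001-125455000, of 24, 24 and 23 kb.

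The share also differed with the place within a peak. In the 107 siNeg replicate 3 peaks of 20 kb and over, 36.7% and 33.4% of the kb within 1 kb of a peak's outermost kb were in siDNAJC9 replicates 1 and 3. The shares were 57.0% and 50.9% at 2 to 4 kb from the end, 67.2% and 58.9% at 5 to 9 kb, and 80.4% and 72.5% at 10 kb and further in. In siNeg replicate 1 they were 92.3%, 97.4%, 98.0% and 98.8%. In the other direction, the 137 siNeg replicate 1 peaks of this width were called in siNeg replicate 3 over 61.5% of the kb at their ends and over 80.3%, 85.3% and 91.1% further in. The same kb were called in siDNAJC9 replicate 1 over 25.5%, 46.4%, 58.8% and 69.1%, and in siDNAJC9 replicate 3 over 20.99%, 38.8%, 49.9% and 61.5%. Peak ends of siDNAJC9 replicate 1 were also less often matched in siDNAJC9 replicate 3, with 65.6% at the ends and 90.3% at 10 kb and further in, so a lower share at ends was seen between replicates of either siRNA as well. The shares by position in the whole core domain were closer together. Of the kb shared by both siNeg lists, both siDNAJC9 lists held 45.7% in the middle of the siNeg replicate 3 core, 48.7% nearer its ends and 40.4% outside it.

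**Figure D5:**
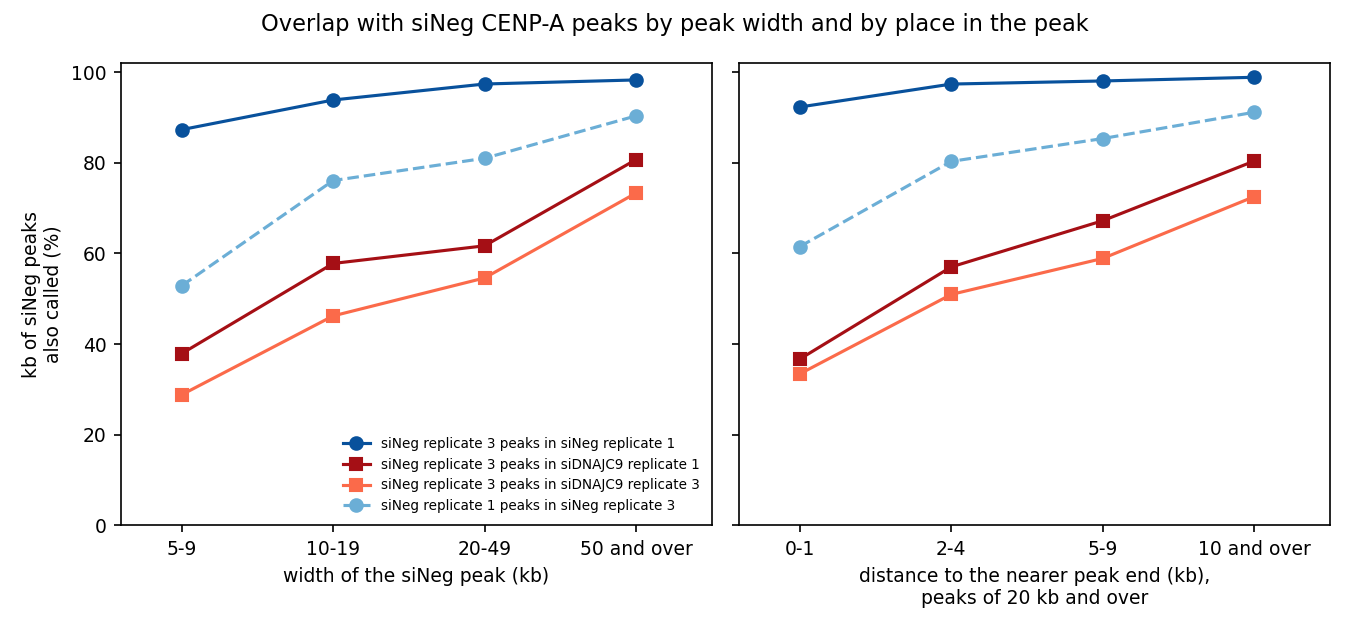
Solid lines give the share in % of the kb of siNeg CENP-A replicate 3 peaks that was also called in siNeg replicate 1 and in siDNAJC9 replicates 1 and 3, by peak width in kb (left) and, for peaks of 20 kb and over, by distance to the nearer peak end in kb (right). The siDNAJC9 lines rise from 37.9% and 28.8% to 80.7% and 73.3% with width. Between the control replicates, the solid line (siNeg replicate 3 peaks in siNeg replicate 1) stays at 87.3% or above, and the dashed line (siNeg replicate 1 peaks in siNeg replicate 3, classed by their own width and ends) rises from 52.9% to 90.3%.

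Many wide siNeg peaks were called in several pieces in another list. Of the 107 siNeg replicate 3 peaks of 20 kb and over, 99 overlapped a single siNeg replicate 1 peak and 8 overlapped several. In siDNAJC9 replicate 1, 55 overlapped a single peak, 44 several and 8 none, and in siDNAJC9 replicate 3 the counts were 54, 45 and 8. An overlap could cover only part of a peak. The median covered share of these peaks was 70.4% and 61.3% in siDNAJC9 replicates 1 and 3. Starting from siNeg replicate 1 instead, 46 of its 137 peaks of that width (33.6%) were in several pieces in siNeg replicate 3, 57 (41.6%) in siDNAJC9 replicate 1 and 53 (38.7%) in siDNAJC9 replicate 3. Pieces were therefore also common between control replicates when the list with fewer called kb was looked up, and are not particular to siDNAJC9. In the other direction, 50 of the 53 siDNAJC9 replicate 1 peaks of that width overlapped a single siNeg replicate 3 peak. The same held for 34 of the 36 in siDNAJC9 replicate 3. Over all widths, 425 of 558 peaks (76.2%) of siDNAJC9 replicate 1 and 364 of 493 (73.8%) of replicate 3 lay wholly within one siNeg replicate 3 peak, and 76.8% of siNeg replicate 3 peaks lay within one siNeg replicate 1 peak. The longest stretches shared by both siNeg lists differed among themselves. The 119-kb stretch chr6:61054001-61173000 was called over 86 kb in both siDNAJC9 lists, in 4 separate runs, and the 106-kb stretch chr2:92333001-92439000 over 58 kb, also in 4 runs. The 106-kb stretch on chromosome 18 was called over 92 kb in a single run. The kb called in both siNeg lists and in neither siDNAJC9 list came as 577 runs with a median of 5 kb, and the longest were 24 kb.

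Few kb inside the windows were added in both siDNAJC9 lists. The windows were placed at the maximum of a siNeg list, which favors siNeg in them, so these values are a description. Of the 4256 kb held by both siDNAJC9 lists, 91.6% were in both siNeg lists and 6.30%, or 268 kb, were in neither. Taken singly, siDNAJC9 replicates 1 and 3 had 651 of 6173 kb and 641 of 5264 kb in neither siNeg list. A further 756 kb outside both siNeg lists were in only 1 siDNAJC9 list. Kb that neither siNeg list held were called in 0.669% and 0.659% of cases in siDNAJC9 replicates 1 and 3 inside the windows, and in 2.87% and 2.11% of cases outside them. The 268 kb formed 45 runs on 9 chromosomes, with none on the other 13. Chromosome 21 held 125 kb in 16 runs, or 46.6% of the total, all between positions 12897001 and 14556000, and chromosome 12 held 55 kb in 10 runs. The longest run, chr21:13404001-13426000, had 22 kb. Of the 45 runs, 21 lay more than 100 kb from any siNeg peak, and 3 touched a siDNAJC9 IgG peak.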

How the data were processed

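CENP-A and IgG CUT&RUN libraries from RPE1-Tet-GFP-CENP-A cells were analysed as peak positions. Per the paper's methods, the authors trimmed reads with Cutadapt, aligned them with bowtie2 to T2T-CHM13v2.0, removed duplicates with Picard, and called broad peaks per library with GoPeaks after E. coli spike-in normalization, through CARLISLE. The submitters' processing notes name bcl2fastq and Bowtie. The deposited lists hold chromosome, start and end only. By their names, each list was called against a shared control, another IgG library made with the same siRNA and not analysed here. The paper states a range of total reads per sample, but the depth of each single library is not given. P-values would measure only the spread between libraries, which the study calls biological repeats.

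Covered length was counted per kb with Python 3.11.15, numpy 2.4.6 and pandas 2.3.3. The window choice, the joining of peaks, the overlap of called kb and the log2 ratio were checked on a small made-up example. The other measures were not checked in this way. Chromosome ends were taken as the highest listed position. Members, windows and measures were chosen with earlier results of these data known. Windows named singly had the 4 highest and 4 lowest length ratios or the 3 highest and 3 lowest kept shares. The 3 longest peaks of each list and the 3 largest inner gaps (ties included) were also named; other regions were chosen after their values were seen. Alternatives varied the windows, least peak width, IgG overlap, joining, scaling and replicates.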

Additional observations from a re-analysis of the deposited data

Results flagged for a closer look

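Covered length moved in opposite directions inside and outside the windows, in every library: the log2 ratio of siDNAJC9 over siNeg was -0.91 inside and 5.39 outside. The difference between the 2 was not tested, because the windows were placed by a siNeg list.

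Chromosome X was not among the 22 autosomes. Its window, placed by the same rule at chrX:55981001-60981000, had 596 and 563 kb under CENP-A peaks for replicates 1 and 3 with siNeg, and 364 and 329 kb with siDNAJC9, against 6 and 0 kb in the siNeg and siDNAJC9 IgG lists. The siDNAJC9 mean was 59.8% of the siNeg mean, and 60.1% of the 493 kb in both siNeg lists were called on average with siDNAJC9, both within the range of the autosomes.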

How the results depend on the processing

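The lists hold no score or depth, so no stricter threshold could be set, and 2 libraries per group limit the precision. The lower covered length, mean width, core length and ratio of kb inside to kb outside the windows with siDNAJC9 kept their direction under all alternatives tried. Their size depended on the windows and lists. The log2 ratio of covered length was -0.45 with windows of 10 Mb and -0.73 without siNeg replicate 1. That of core length was -0.58 with windows from the summed length of the 4 lists and -0.83 without siNeg replicate 1. The log2 ratio of the number of peaks turned to 0.11 with windows from the summed length of the 4 lists and to 0.10 with windows of 10 Mb. The number of windows lower with siDNAJC9 was 13 and 12, against 20, under the same settings. Scaling each list to the same total length gave a log2 ratio of covered length of -3.51. That value is the log2 ratio of the share of peak length in the windows, so it also reflects the kb outside them. The kept share of 54.9% was 46.4% under the replicate block, where the base was all kb of the same-numbered siNeg list. It was 40.8% as the share of siNeg peaks at least 50% covered and 40.1% over the kb of either siNeg list. Leaving out 1 library gave a kept share from 41.8%, without siNeg replicate 3, to 59.8%, without siDNAJC9 replicate 3. Without a siNeg list, the base of this share was all kb of the other siNeg list. With 1 library left out, the log2 ratio of kb inside to outside ran from -7.09, without siNeg replicate 1, to -5.87, without siNeg replicate 3.

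The replicate block gave log2 ratios of -0.91 for covered length, -0.50 for the number of peaks, -0.40 for mean width and -6.48 for the inside-to-outside ratio. An exact two-sided sign-flip permutation of 2 pairs cannot go below p = 0.5. The block changed the direction of no ratio, while the kept share moved as given above. Deviations of same-numbered libraries over the 22 windows had a correlation of -0.33, the labels do not say that a number marks a shared batch, and the numbers were not taken to pair the libraries. Chosen after seeing the data, siDNAJC9 was lower within both pairs in 21 windows by number and in 20 with the numbers crossed. Also chosen afterwards, leaving out the 5 windows with the most siNeg length gave a log2 ratio of covered length of -0.78 and a kept share of 55.7%, leaving out chromosome 21 gave -0.95 and 55.2%, and equal weight for each window gave a kept share of 57.6%.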
